A study of Homo sapiens with 26 samples.

Results

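The guides described here target SAGA and NuA4/TIP60, histone-modifying coactivator complexes, in a CRISPR knockout screen of RH4 cells. They were chosen by target name: every name that starts with TADA, and 20 further names of subunits of the complexes. Of those 20 names, 13 were found in the library pools. KAT2A, KAT2B, USP22, ATXN7, ENY2 and EPC2 gave no guides by name and were not analysed here. CCDC101 also gave none, but it is an older name of SGF29, which was found. With 4 TADA genes this made 17 genes, each with 10 guides in a pool. TADA2A and TADA2B were carried by 2 pools each, so there were 19 target measurements and 190 guides, of 10626 guides over the 10 pools.

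RH4 is an established alveolar rhabdomyosarcoma cell line that carries the PAX3-FOXO1 fusion, as do all samples of the series. Cells infected with a guide library were drug selected, harvested at day 7, fixed and stained with antibodies to myosin heavy chain (MYH), which marks muscle differentiation. Sorting gave a MYH high and a MYH low arm, and the guide cassette was amplified from genomic DNA and counted. Each arm of each pool is 1 sample, so no difference between the arms has a replicate check. The SD given beside a target is taken over its guides, which are not replicates of a sort.

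SAGA is built of modules: an acetyltransferase module that modifies histone H3, a deubiquitinase module that removes ubiquitin from histone H2B, a core, and the large scaffold TRRAP. NuA4, also called TIP60 after its acetyltransferase KAT5, acetylates histones H4 and H2A, uses the same TRRAP scaffold, and exchanges histone H2A for its variant through the ATPase EP400. Both complexes are brought to promoters by transcription factors. In muscle cells the SAGA-type acetyltransferase PCAF, the product of KAT2B, is known as a coactivator of MyoD.

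The members lay in pools CF1 (100 guides), CF2 (40 guides), CF3 (30 guides) and TF3 (20 guides), whose samples held 21819567 to 166032777 reads. Single member guides had 8048 to 401748 reads in a sample. The values are log2 ratios of MYH high over MYH low in CPM (a guide's share of the reads of its sample, times 1000000), with a pseudocount of 1 CPM, centred on the median of all guides of the pool. A target is summarised by the median of its guides. The exact binomial 95% interval of a single guide reached 0.007 to 0.034 to either side of its log2 ratio. It covers counting error only, since no molecular identifiers are described and reads are not independent molecules.

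The sort separated the cells in each of these pools. The guide sets against the PAX3-FOXO1 fusion had medians of 2.25 to 4.53 in the 4 pools. In CF1, CF2 and TF3 the other shared control sets (negative controls, PCNA, MYOD1, PAX3_non-fusion and FOXO1_non-fusion) had medians of -0.11 to 0.19. In CF3 the same sets stood at 0.52 to 1.34, the negative controls at 1.30, against -0.11 to 0.07 for the negative controls of the other 9 pools. The member targets as a set, the counts of member guides and the partner subunits are therefore also given without that pool. Other results that include CF3 are given only with it. The part of its raised controls in these results was not tested.

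No target chosen by the naming rule was shifted toward MYH high or MYH low cells by the size used here as a limit. The limit was a log2 ratio of 0.3 in either direction (1.23-fold). Partner subunits outside the rule are given further on. Of the 19 measurements, 0 reached the limit in the enriched direction, where 1.52% of all targets of the 10 pools did (15 of 984) and 1.88% of those of the 4 pools with members (8 of 425). In the depleted direction 0 of 19 reached it, where 0.813% of all targets (8 of 984) and 1.18% of those of the 4 pools (5 of 425) did. Counts of 0 among 19 are near these backgrounds, so they do not set the coactivator targets apart from other targets. With no centring the split over all targets was 9 enriched and 40 depleted, and with centring on the negative controls it was 23 and 112. Members are counted under those centrings further on.

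The member values ran from -0.11 (TAF5L in CF1) to 0.12 (SGF29 in CF1), with a median of 0.003 and an SD of 0.08 over targets. All targets of the same 4 pools had a median of -0.01, an SD of 0.13 and a range of -0.42 to 0.60. Of the members, 10 lay above 0 and 9 below, where 44% of the targets of these pools lay above 0. All 19 were within 0.2 of 0, as were 88.9% of the targets of the 4 pools. The median SD over guides was 0.18 for the members and 0.20 for the targets of these pools. Of the members, 18 of 19 lay closer to 0 than the SD over their own guides, and ING3 was the other. The same share was not taken over all targets, so this count does not set the members apart. Without CF3 the remaining 16 measurements had a median of 0.03 and an SD of 0.07. Of these, 10 lay above 0 and 6 below, where 43.9% of the targets of TF3, CF1 and CF2 lay above 0. Again 0 of the 16 were past the limit in either direction.

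The acetyltransferase module of SAGA was represented by SGF29, TADA2B and TADA3. SGF29, a reader of methylated histone H3 that SAGA shares with the related complex ATAC, had the highest value of the members. Its guides had 599 to 3225 CPM (median 911) in MYH high cells and 570 to 2698 CPM (median 902) in MYH low cells. The ranges of the arms overlapped almost fully. The log2 ratios of its 10 guides were 0.34, 0.19, 0.15, 0.15, 0.12, 0.11, 0.00, -0.01, -0.08 and -0.14, with a median of 0.12 (SD 0.14), or 1.08-fold. Its guides thus fell on both sides of 0, with 7 above, and 11 of the 107 targets of CF1 had a higher value.

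TADA2B, the adaptor that places the acetyltransferase in SAGA, was measured in pools TF3 and CF3. In TF3 its guides had 398 to 1242 CPM (median 814) in MYH high cells and 491 to 1466 CPM (median 741) in MYH low cells. The median log2 ratio was -0.10 (SD 0.21), with 4 of 10 guides above 0. In CF3 the value was -0.06 (SD 0.30), with 3 of 10 guides above 0 and single guides from -0.58 to 0.48. The guide at -0.58, sgRNA_11934, was the lowest of all member guides, and the one at 0.48, sgRNA_11937, was among the 5 highest. TADA3, which bridges the adaptor and the rest of the module, had -0.08 (SD 0.33) in CF3. Its guides ran from -0.44 to 0.64, with 4 of 10 above 0.

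TADA2A is the counterpart of TADA2B that takes its place in ATAC, a complex with the same acetyltransferases. In CF1 it had 0.04 (SD 0.09) and 7 guides above 0, and in TF3 -0.03 (SD 0.14) and 5 guides above 0. The values of the 2 pools differed by 0.08 for TADA2A, and by 0.04 for TADA2B. Over the 28 genes that were carried by 2 pools the median absolute difference was 0.06. Under the centring used here, repeat measurements of the TADA2 genes thus lay about as close together as those of other genes. Centred on the negative controls, TADA2B had -0.08 in TF3 and -1.36 in CF3, and TADA2A had -0.02 in CF1 and -0.02 in TF3. The guides of the 2 pools have different names; whether any share a sequence was not analysed here.

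The core of SAGA had 6 targets with a median of 0.00, 3 above 0 and 3 below. TAF6L, the SAGA form of the TFIID subunit TAF6, had 0.06 (SD 0.18) in CF1. SUPT3H, a histone-fold subunit known in yeast for contacting the TATA-binding protein, had 0.06 (SD 0.13) in CF1. SUPT7L, whose yeast counterpart carries a bromodomain, had 0.003 (SD 0.19) in CF2, with 5 of 10 guides above 0. SUPT20H, needed in yeast to hold the complex together, had -0.001 (SD 0.21) in CF1, also with 5 of 10 guides above 0. TADA1, a histone-fold subunit, had -0.09 (SD 0.21) in CF3, with 3 of 10.

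TAF5L, the SAGA form of the TFIID subunit TAF5, had the lowest median of the members and also the guide with the highest ratio. Its 10 guides in CF1 had log2 ratios of 1.27, -0.02, -0.07, -0.08, -0.11, -0.11, -0.13, -0.18, -0.21 and -0.26. The guide sgRNA_11097 stood alone, with 1992 CPM in MYH high cells and 876 CPM in MYH low cells, while the other 9 guides all lay below 0. The target therefore had a median of -0.11 (SD 0.45) but a mean of 0.01, and a mean of -0.13 without that guide. Only 2 of 1113 target guides of CF1, this one included, were at or above it, and its SD over guides was the second highest of 107 targets. A negative-control guide of the same pool stood alone in the same way, at 4.43, where the next of the 10 was at 0.17. What set either guide apart was not tested.

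The deubiquitinase module was represented by ATXN7L3, a subunit required for the activity of the ubiquitin protease USP22. Its guides had 435 to 1705 CPM (median 885) in MYH high cells of CF2 and 454 to 1974 CPM (median 840) in MYH low cells. The value was 0.03 (SD 0.21), with 5 of 10 guides above 0. The guide sgRNA_9230 was at 0.59 and the next at 0.23; without the first the median was -0.01.

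TRRAP, the scaffold common to both complexes, which binds activators such as MYC, lay close to 0. Its guides had 256 to 1314 CPM (median 738) in MYH high cells of CF1 and 258 to 1336 CPM (median 791) in MYH low cells. The log2 ratios were 0.13, 0.10, 0.07, 0.06, -0.01, -0.05, -0.13, -0.13, -0.13 and -0.24, with a median of -0.03 (SD 0.12). No TRRAP guide reached the limit in either direction.

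The NuA4/TIP60 subunits had a median of 0.10 over 5 targets, 4 of them above 0. Of all targets, 44.9% in CF1 and 47.1% in CF2 lay above 0. Whether 4 of 5 differs from that was not tested. KAT5, the acetyltransferase, had guides of 423 to 1403 CPM (median 801) in MYH high cells of CF2 and 452 to 1519 CPM (median 772) in MYH low cells. Its log2 ratios were 0.31, 0.22, 0.17, 0.16, 0.15, 0.05, 0.04, 0.02, -0.02 and -0.08, with a median of 0.10 (SD 0.12), or 1.07-fold. Its 8 guides above 0 held 5 at 0.15 to 0.31 and 3 at 0.02 to 0.05. The sign depended on the centring, since the value was -0.03 with no centring and 0.20 when centred on the negative controls. Under the main centring, 19 of 104 targets of CF2 had a higher value.

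EP400, the ATPase, had a similar median, with 1 guide far above the others. The guide sgRNA_11223 was at 0.80, with 604 CPM in MYH high cells and 380 CPM in MYH low cells, and the other 9 ran from -0.15 to 0.22. The median was 0.10 (SD 0.28) with all guides and 0.08 without that one. With no centring it was -0.03, and centred on the negative controls it was 0.19. In CF1, ING3, a reader of methylated histone H3, had 0.12 (SD 0.11), with 8 of 10 guides above 0 and none past the limit. DMAP1, which NuA4 shares with the SRCAP remodelling complex, had 0.08 (SD 0.14), with 6 of 10 above 0. EPC1, an enhancer of polycomb protein that ties KAT5 to the complex, had -0.05 (SD 0.15), with 4 of 10 above 0.

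Guide by guide, the members did not gather at either end of their pools. Of 190 guides, 12 had a log2 ratio of at least 0.3, or 6.32%, where 9.6% of the 4374 target guides of the 4 pools did and 7.69% of those of all pools. At -0.3 or below lay 8 member guides, or 4.21%, where 9.72% of the target guides of the 4 pools did and 6.48% of those of all pools. The limit was reached by 10 of the 30 guides in CF3, 4 upward and 6 downward. The targets of that pool as a whole had 13.9% of guides at 0.3 or above and 17.6% at -0.3 or below, the pool being the widest of the 4. Without CF3, 8 of 160 member guides reached 0.3, or 5.0%, where 8.21% of the 3302 target guides of TF3, CF1 and CF2 did. At -0.3 or below lay 2, or 1.25%, where 7.15% of those target guides did. No member had more than 2 guides at or past the limit upward, or more than 2 downward. TADA2B and TADA3, both in CF3, had 2 in each direction. The share of all targets with more than 2 such guides was not taken. Other targets did have more, such as ARID1A in CF1 with 8 upward and MED7 in CF2 with 6 downward.

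The guides of SUPT20H were among the rarest of their pool. Their median in MYH low cells of CF1 was 504 CPM, where the median over the targets of CF1 was 778 CPM, and 0.935% of targets had a lower one. DMAP1 followed with a median of 603 CPM and 8.41% of targets lower, though its single guides ran from 461 to 2360 CPM. The other 17 measurements stood above the lowest 10% of their pools, up to TADA2A in TF3 at 1307 CPM. With 2 of 19 in the lowest 10%, the members were near the share of all targets. No earlier sample of the pools was analysed here, so the make-up of the library and loss of cells before the sort cannot be told apart.

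Partner subunits that the naming rule leaves out were read from a list of the remaining SAGA, ATAC and NuA4 genes. Its 17 measurements, of 16 genes, ran from -0.16 to 0.32 with a median of 0.04; 1 was past the limit, upward. That was RUVBL1, an ATPase of NuA4 and of other remodelling complexes, at 0.32 (SD 0.48) in CF3, with 8 of 10 guides above 0 and a range of -0.43 to 1.14. It had the highest value of the 106 targets of CF3, and -0.97 when that pool was centred on its negative controls. Without CF3, 9 measurements remained, with a median of -0.06 and 0 past the limit in either direction. A second list held other histone acetyltransferases, among them EP300 and CREBBP, and some of their partners, but not every such partner in the pools. Of its 12 measurements 0 were past the limit. Their values ran from -0.19 (CREBBP in CF3) to 0.10 (BRPF1 in CF1).

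The authors' deposited table, with a model score named beta per target, had the members between -0.068 (TADA1) and 0.079 (EP400). Above 0 were 12 of the 19 values of beta in the authors' deposited table, where 560 of 1054 were over all rows of the 10 pools. The count therefore does not set the members apart. False discovery rates are not given here, since each arm is 1 sample. The sign of beta in the authors' deposited table matched that of the median log2 ratio for 17 of 19; TAF5L and SUPT20H were the exceptions, with beta above 0.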

How the data were processed

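Guide cassettes were amplified from genomic DNA by 2 rounds of PCR and then sequenced (per the labels' protocols). Raw read counts for each guide were deposited by the authors; the submitters' processing notes name FastQC and MAGeCK. The sources used here give no tool versions and no genome build, and guide sequences were not analysed here; neither sequence nor coordinate is printed. For each pool the authors also deposited a table with 2 score columns (beta, z) and with p-values and false discovery rates per target; which logarithm beta uses is unstated. In them 2 columns without a name were not used.

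Counts of the 20 samples of the 10 pools were scaled to CPM and read as log2 ratios, MYH high over MYH low (pseudocount 1 CPM). Guides below 10 counts in both arms together were left out, 8 in all and 0 among members. Guides shared by at least 6 pools counted as controls. Targets needed 3 guides. With 1 sample per arm no test between conditions was made.

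All members are named, with guides given in full for the highest, the lowest, KAT5 and TRRAP; guides that stand apart (TAF5L, EP400, ATXN7L3, TADA2B) were chosen after their values were seen. The members and lists were chosen with earlier results of these data known. All 17 gene names matched current symbols in RefSeq (GRCh38.p14). The procedure was tested on simulated data. Alternatives were other centrings, scalings (edgeR 4.0.16, DESeq2 1.42.0), pseudocounts, count minimums, summaries and limits. Python 3.11.15, numpy 2.4.6, pandas 2.3.3, scipy 1.17.1 and R 4.3.3 were used.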

Additional observations from a re-analysis of the deposited data

Results flagged for a closer look

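Across the pools, 5 shared control sets lay far above their other values in CF3, the pool of TADA1, TADA2B and TADA3. Chance marks about 1 group in 20 in this way. All 5 sets were read from the same MYH high and MYH low samples, so they are not 5 separate marks. The median log2 ratio there was 1.34 for PCNA, against -0.11 to 0.35 in the other 9 pools, and 1.30 for the negative controls, against -0.11 to 0.07. It was 1.04 for PAX3_non-fusion, against -0.02 to 0.22, and 0.52 for MYOD1, against -0.33 to 0.06. FOXO1_non-fusion had 0.52, against -0.04 to 0.20 in 8 pools. The 3 member targets of CF3 lay at -0.09 to -0.06 in the same samples.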

How the results depend on the processing

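Under 15 alternatives, 13 planned and 2 added after the data were seen, no member reached the size limit in the enriched direction, and none in the depleted direction under 14 of them. The exception was centring on the 10 negative-control guides of a pool, under which 3 members were depleted: TADA1, TADA3 and TADA2B in CF3, at -1.38, -1.37 and -1.36, each lowered by the raised controls of that pool. The median over members was -0.11 with no centring, which also lowers the median of all targets, to -0.10. Apart from the negative-control centring, under which the highest was 0.20 (KAT5), member values stayed between -0.21 and 0.13. Of 244 recomputed member values 240 moved by less than the SD over guides. Besides the 3 in CF3, KAT5 moved by more with no centring. The values without CF3 and those without a count minimum repeated the main values, so they add nothing to that count. Omission of CF3 and a limit of 0.4 also could not add a member past the limit. For 10 measurements the sign was the same under every alternative, and for 9 it changed under at least 1. All 19 had main values within 0.12 of 0. Over all targets, 15 enriched and 8 depleted became 23 and 112 with negative-control centring, 9 and 40 with no centring, 23 and 5 with summed counts, 36 and 33 at a limit of 0.2, and 8 and 3 at a limit of 0.4. Omission of single guides from members past the limit was not run, as there were none. No paired analysis was possible because each arm of a pool is 1 sample. The counting interval of single guides is narrower than the spread over the guides of a target; sampling of cells before the PCR is not covered by it, and no detection limit was measured.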
